A study of Rattus norvegicus with 12 samples.

Results

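The peaks described here are stretches of rat mRNA whose m6A signal differed between injured and uninjured sciatic nerve and whose start and end both lie off the regular window grid of the program that compared the groups. The deposited list held 4014 differentially methylated peaks, and 1824 of them (45.4%) were chosen by a rule on position alone. A peak was taken when its start was not 1 base past a multiple of 20, its end was not at a multiple of 20, its length (end minus start) was under 500 bases and it lay outside 2 dense minus-strand groups on chromosome 3. They are called off-grid peaks below. An edge can leave the grid where a window is cut at the border of an exon, so that a peak with both edges off it may fill a whole exon. The list names no exon, and no annotation or sequence of its genome build (rn5) was used here, so the match to exons was not looked up peak by peak.

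The RNA came from the sciatic nerve of female Wistar rats, 4 weeks old and weighing 100 to 120 g. The SNI group was sampled 7 days after sciatic nerve injury, from about 1 cm of nerve at the centre of the injury, and the control group was uninjured. Each group had 3 samples. From every sample 1 library was made of the RNA pulled down by an antibody to m6A (IP) and 1 of input RNA, which gives 12 libraries. The labels do not say whether each sample was 1 animal. The deposited list has 1 row per peak for the whole comparison, with position, strand and a score, read here as the −log10 p-value of SNI against control. It holds no value per library, no direction, no fold change and no expression, so that replicate error, a direction of change and the markers of nerve cells could not be computed. From this list of bulk tissue, changes in mRNA level, in the makeup of the cells and in methylation per cell cannot be told apart. The study reports that, where mRNA level changed too, nearly all changed peaks went the same way as the mRNA.

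m6A is a methyl mark on the adenosine of mRNA. METTL3 and METTL14 write it, FTO and ALKBH5 remove it, and reader proteins bind it and set how long the message lasts and how well it is translated. In most mRNAs the mark gathers in long internal exons, around the stop codon and in the 3′ untranslated region, while short internal coding exons near splice sites carry little of it, because the exon junction complex shields them. In MeRIP-seq the RNA is broken into fragments before the antibody is added, so that reads from a mark in one exon can spread into the neighbouring exons of the same message.

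The grid showed in the whole list. Of all 4014 starts, 1218 were 1 base past a multiple of 20, while each of the other 19 remainders held between 128 and 161 starts (median 148). Ends gave the same picture, with 1220 at a multiple of 20 and between 120 and 176 (median 146) at each other remainder. Edges off the grid were thus spread over all remainders. In all, 2071 peaks had both edges off the grid. Of these, 104 lay in the dense chromosome 3 groups and 143 others were at least 500 bases long, which leaves the 1824 described here. Just inside the length limit were peaks of 498 bases on chromosome 17 (45486738 to 45487236, score 10.6) and chromosome 18 (37635479 to 37635977, score 11.6), and one of 497 bases on chromosome 12. Just outside were 2 peaks of 500 bases, one of them at Gdnf, which encodes a growth factor for neurons, and one of 501 bases at Inhba, which encodes a subunit of activin.

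Off-grid peaks were short and their lengths gathered in a narrow range. The median was 125 bases, with quartiles of 85 and 181 bases, and 90% lay between 39 and 360 bases. Lengths from 50 to 249 bases were found for 1449 of the 1824 (79.4%), and 150 (8.22%) were shorter than 50 bases. Peaks under 500 bases with 1 edge on the grid (n = 1244) had nearly the same median, 129 bases, with wider quartiles of 81.8 and 213 bases. Of these, 64.4% lay between 50 and 249 bases and 15.9% were shorter than 50. Peaks with both edges on the grid (n = 360) had a median of 299 bases, and 31.9% lay in that range. Since the rule used the edges and a length limit, these lengths are a description and were not tested. The shortest off-grid peaks, at 5 bases on chromosome 5 (68997723 to 68997728) and 6 bases on chromosome 20 (31457471 to 31457477, score 9.57), were far shorter than an RNA fragment of the library.

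**Figure D1:**
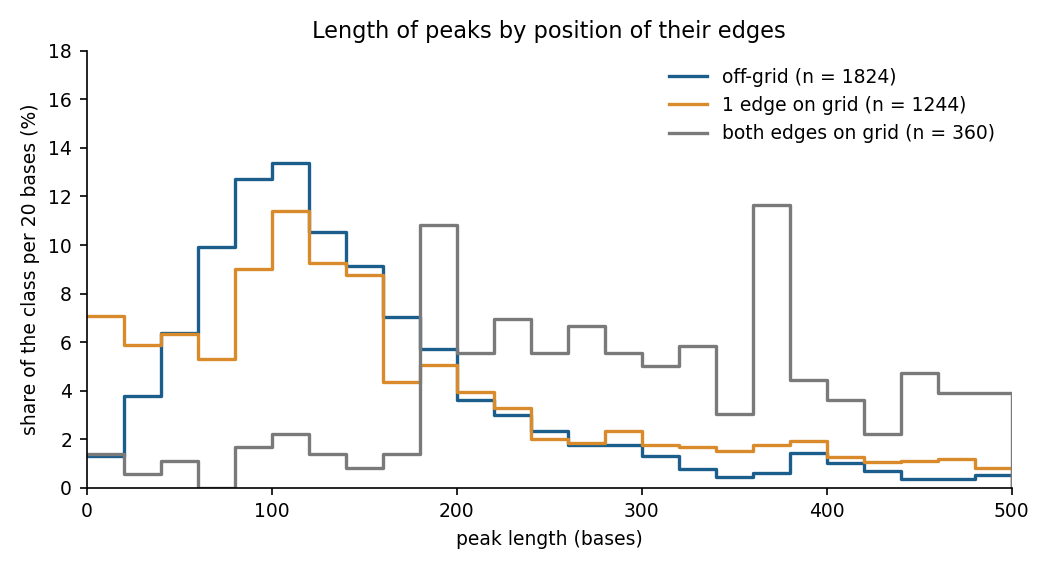
Share of each class of peaks (y axis, percent of the class per 20 bases) against peak length (x axis, bases), for off-grid peaks, peaks with 1 edge on the grid and peaks with both edges on it. Off-grid peaks and peaks with 1 edge on the grid have close medians of 125 and 129 bases, the former with less spread. Peaks with both edges on the grid spread around 299 bases.

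Whether a length is a multiple of 3 is a measure that the rule did not use. Codons are read in steps of 3 bases, and many internal coding exons hold a whole number of codons, so that skipping or shuffling them keeps the reading frame. Lengths that are a multiple of 3 (whole-codon lengths) made up 780 of the 1824 off-grid peaks, or 42.8% (exact 95% Clopper-Pearson interval 40.5% to 45.1%, counting error only). A remainder of 1 was found for 29.1% and a remainder of 2 for 28.2%. Among peaks with 1 edge on the grid the whole-codon share was 34.9% (434 of 1244, 32.2% to 37.6%) and among peaks with both edges on it 30.3% (109 of 360, 25.6% to 35.3%). The off-grid share was 7.88 percentage points above the first (95% interval 4.37 to 11.3) and 12.5 points above the second (7.06 to 17.5), with an adjusted p of 5.11e-05 for each (two-sided Fisher's exact test over peaks, Benjamini-Hochberg over 8 tests). Peaks with both edges on the grid can take just 25 lengths under the limit, 8 of them multiples of 3, so the first comparison is the more even one. Peaks of one transcript are not independent, and with 1 peak per class and locus the differences were 5.49 points (adjusted p = 0.0364) and 11.8 points (adjusted p = 0.00141, Fisher's exact test).

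How the length is counted matters for this result. The excess lies in end minus start, which is the number of bases when starts count from 0 as in the BED format. With 1 base added, the off-grid share was 28.2% and the difference from peaks with 1 edge on the grid turned to −4.46 points (adjusted p = 0.0363, Fisher's exact test). Starts on the grid, in contrast, lie 1 base past a multiple of 20, so that the list may mix starts counted from 0 and from 1 and the classes may differ in how their length is counted. With 1 base added only to peaks whose start is on the grid, a setting chosen after the data had been seen, the differences were 7.88 points (adjusted p = 5.11e-05) and 15.0 points (adjusted p = 6.27e-07, Fisher's exact test).

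The whole-codon share was above 1 in 3 in all 8 classes of length. It was 46.0% below 50 bases (n = 150), 44.9% from 50 to 99 (n = 472), 37.6% from 100 to 149 (n = 519), 41.5% from 150 to 199 (n = 316) and 48.6% from 200 to 249 (n = 142). From 250 to 299 bases it was 37.2% (n = 86), against 36.2% for peaks with 1 edge on the grid, and from 400 to 499 bases 44.6% (n = 56). The highest share, 56.6% (interval 45.3% to 67.5%, n = 83), was found from 300 to 399 bases. Both strands gave nearly the same value, 42.5% on plus (n = 836) and 43.0% on minus (n = 988). Between score classes it ranged from 37.5% at scores of 10 and above (n = 328) to 44.5% from 8 to below 10 (n = 371), with overlapping intervals.

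**Figure D2:**
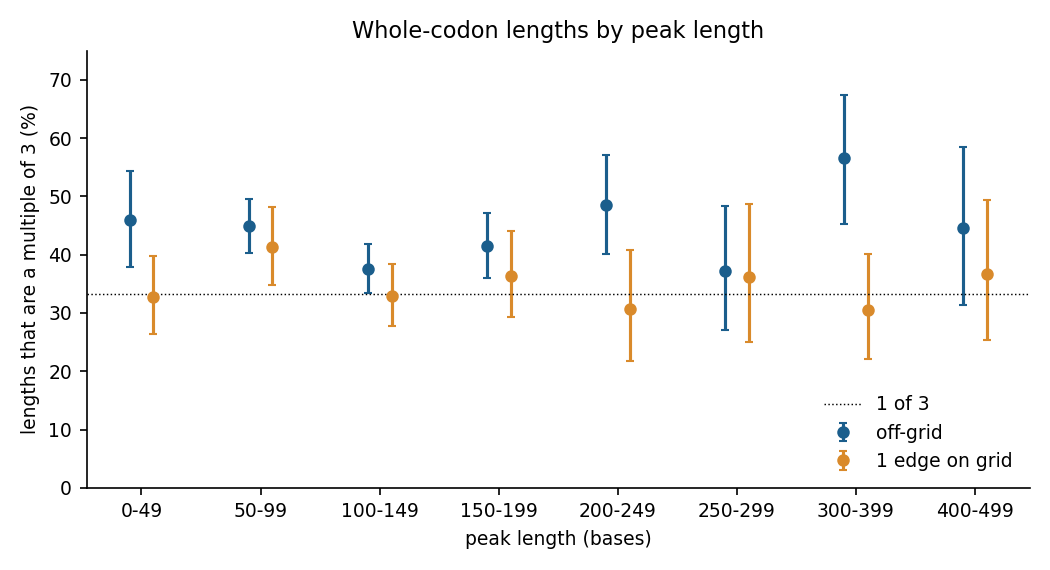
Share of lengths that are a multiple of 3 (y axis, percent) by class of length (x axis, bases), for off-grid peaks and peaks with 1 edge on the grid; bars are exact 95% Clopper-Pearson intervals and the dotted line marks 1 in 3. Off-grid peaks lie above the other class in all 8 classes of length, by most from 300 to 399 bases, where peaks near histone genes are included.

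Single lengths stood out base by base. The most frequent length was 72 bases (24 codons), with 24 off-grid peaks against 2 at 71 and 6 at 73 bases. Next came 108 bases with 21 peaks, against 11 and 13 at the lengths 1 base shorter and longer, and then 54 bases with 19, against 3 and 4. At 105 bases there were 19 peaks, against 4 and 10, and at 147 bases 17, against 6 and 11. These 5 lengths are whole codons. The next, 119 bases with 16 peaks, is not, and neither are 83, 91 and 98 bases with 15 each. The first 3 are also multiples of 9 bases, as is 45 bases, which had 13 peaks against 5 at each neighbouring length. Not every multiple of 9 stood out, since 99 bases had 13 peaks against 15 at each neighbouring length, and 90 bases had 15 against 9 and 15. Multiples of 9 are also multiples of 3, and their share over all off-grid peaks was not set against that of other multiples of 3. Of the 24 peaks of 72 bases, 2 are the same interval on chromosome 6 (39260307 to 39260379, plus strand) listed 2 times, with scores of 5.81 and 6.48. No other pair of off-grid peaks on the same strand overlapped or touched.

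**Figure D3:**
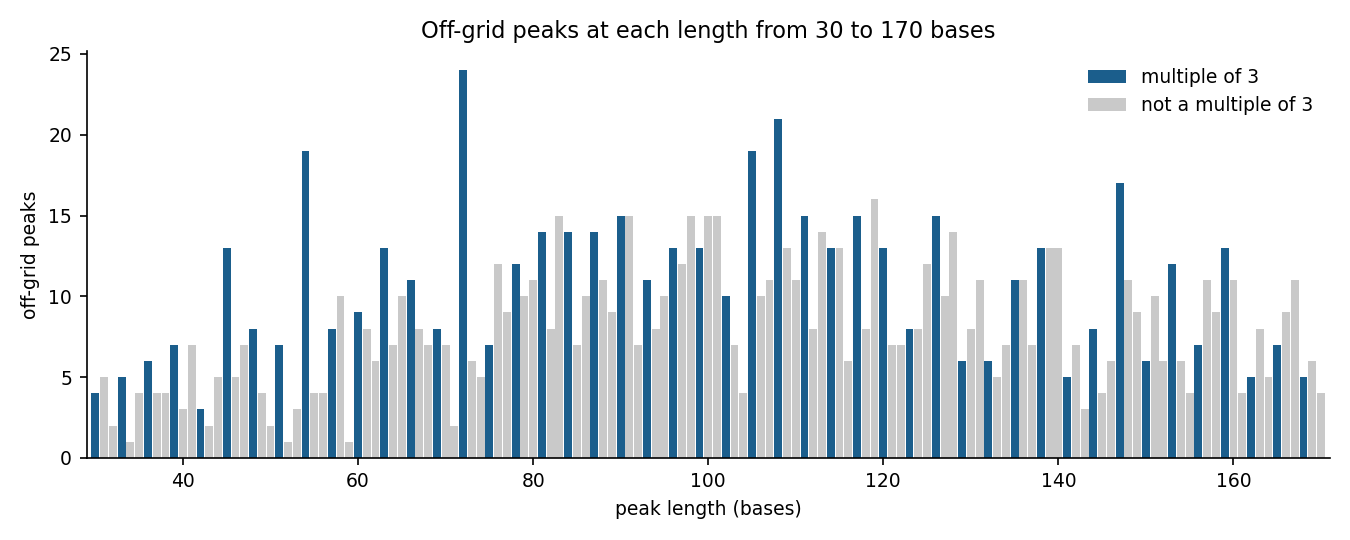
Number of off-grid peaks (y axis) at each length from 30 to 170 bases (x axis), with multiples of 3 in blue and other lengths in grey. The bars at 54, 72, 105, 108 and 147 bases stand above their neighbours, the highest being 72 bases with 24 peaks.

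Some loci repeated a length, and those below were picked out for it. On chromosome 2 (plus strand), between 269820600 and 269894614, lay 6 off-grid peaks of 54, 54, 45, 108, 54 and 54 bases, in order of position. All 6 are multiples of 9 bases, and their scores ran from 6.05 to 8.59. Exons of the collagen triple helix are known for lengths built of 9-base units, each coding for a glycine and the 2 residues after it. The peaks of this locus have no gene name in the annotation used here. The 2 peaks named Col7a1, which encodes the collagen of anchoring fibrils, were 81 and 45 bases long (chromosome 8, 117061026 to 117061107, score 9.23, and 117061440 to 117061485, score 6.71). The peaks named Col18a1, a basement membrane collagen, were 54 bases (score 6.26) and 100 bases long (score 6.92).

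Lengths of 72 bases came in groups too. On chromosome 10 (plus strand) 3 peaks of 72 bases lay between 20276014 and 20285916, with scores from 7.48 to 8.45, and on chromosome 7 (minus strand) 3 more lay between 58477059 and 58501046, with scores from 7.63 to 12.1. The latter locus also held an off-grid peak of 69 bases. These loci carry no name here either. Another repeat was seen on chromosome 1 (43241865 to 43261857, minus strand). Its 9 off-grid peaks, in order of position, were 141, 165, 159, 165, 159, 174, 144, 165 and 203 bases long, and 8 of the 9 were whole codons.

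Some off-grid peaks lay in rows along one strand. Of the 1824, 775 had another off-grid peak of the same strand less than 10 kb away and formed 247 chains of 2 or more, while 1049 stood alone. Whether the peaks of a chain belong to 1 gene was not looked up. Chains of 5 or more numbered 33 and held 264 peaks. The gap from one peak of a chain to the next had a median of 2948 bases, with quartiles of 1418 and 5570 bases, so that the peaks were separated by stretches far longer than themselves. In the 15 chains of 8 or more, the peaks covered between 2.68% and 7.87% of the span from the first to the last. Peaks in chains of 5 or more had a median score of 7.82, and peaks standing alone 7.30. A score of at least 8 was found for 46.2% of the former (interval 40.1% to 52.4%) and 33.6% of the latter (30.7% to 36.5%), as a description with no test. The whole-codon share did not follow chain size, at 41.5% alone, 46.2% in chains of 2 to 4 and 41.3% in longer ones.

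The longest chain had 15 off-grid peaks over 33.4 kb of the plus strand of chromosome 2, from 258919757 to 258953167. Of these, 6 are named Cenpe, the kinetochore motor that holds chromosomes to microtubules, and the list holds 3 more peaks of other classes in the span. Lengths ran from 82 to 303 bases, 12 of the 15 were whole codons, and 3 peaks had the same length of 159 bases. Scores ran from 5.39 to 12.8, and the 3 peaks nearest the 5′ end included the highest score and the lowest. Of the 6 named peaks, all were whole codons, from 120 to 282 bases.

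Several other long chains had fewer whole-codon lengths. On chromosome 5 (74032557 to 74079262, minus strand) there were 14 off-grid peaks, 2 of them named Abca1, the cholesterol exporter of the cell membrane. Their scores were high throughout, from 8.16 to 12.0, and 4 of the 14 were whole codons. Another peak of Abca1, of 177 bases, lay past the end of the chain. A chain of 10 on chromosome 13 (112778158 to 112804965, minus strand) held the 2 peaks of Cenpf, a kinetochore and centromere protein, with scores from 8.30 to 12.7 and 3 of 10 whole codons. In the chain of 9 peaks on chromosome 10 (19397703 to 19434507, minus strand) that includes Dock2, an activator of Rac in leukocytes, 0 of the 9 were whole codons. Unnamed chains of 14 peaks each lay on chromosome 14 (37490863 to 37542630, plus strand) and chromosome 9 (99867263 to 99893950, minus strand), each with 5 whole codons. Between chains the share thus ran from 0 of 9 to 8 of 9, although all were chosen by the same rule.

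**Figure D4:**
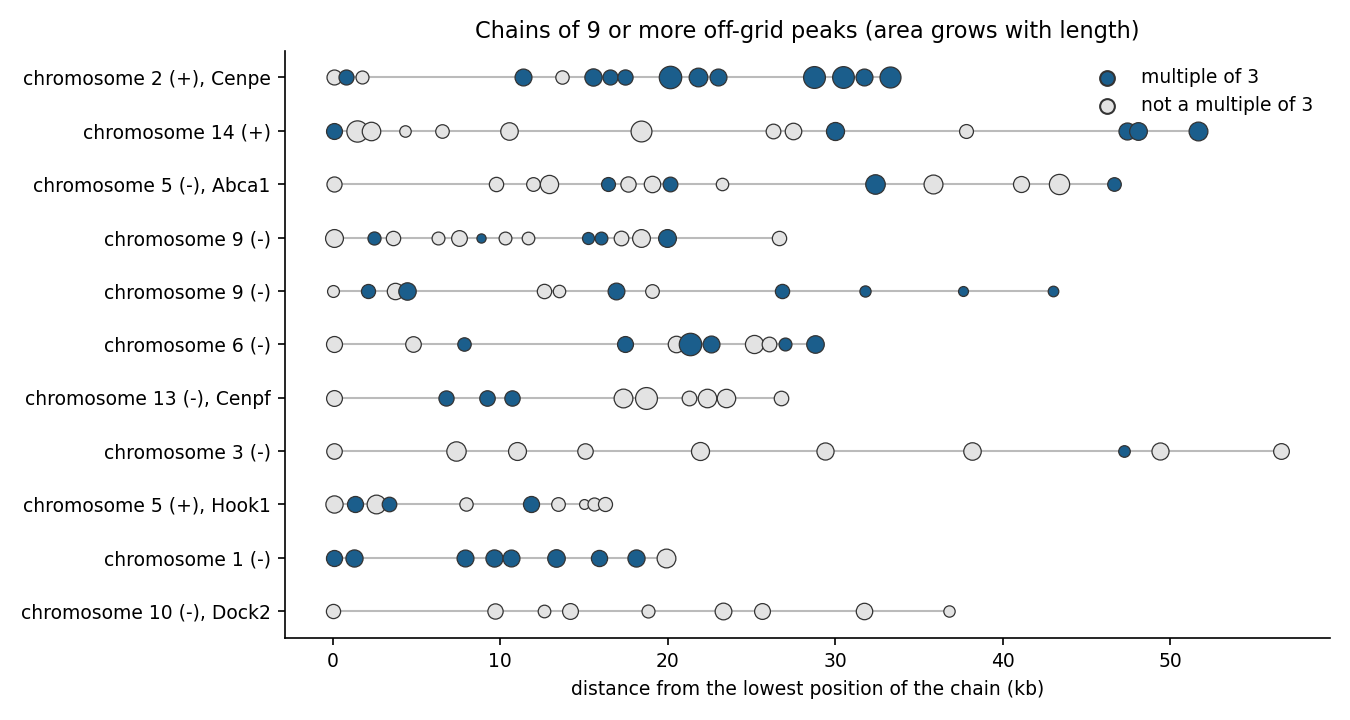
Position of each off-grid peak in the 11 chains of 9 or more (x axis, distance in kb from the lowest position of the chain; 1 row per chain, named by chromosome, strand and any gene name); circles grow with peak length and are blue where it is a multiple of 3. The Cenpe chain on chromosome 2 has 12 blue circles of 15 and the Dock2 chain on chromosome 10 has 0 of 9.

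Spacing was also compared with the other classes, counting neighbours among all peaks of the list outside the dense groups. A neighbour on the same strand within 10 kb was found for 984 of the 1824 off-grid peaks (53.9%, interval 51.6% to 56.3%), for 48.2% of peaks with 1 edge on the grid and for 50.8% of those with both. The difference was 5.80 points from the first (95% interval 2.19 to 9.38, adjusted p = 0.00470, Fisher's exact test) and 3.11 points from the second (−2.50 to 8.74, adjusted p = 0.477). Close peaks count as neighbours of each other and are not independent, so these intervals and p-values are likely too narrow. With a distance of 5 kb the first difference was 2.84 points (adjusted p = 0.238, Fisher's exact test). With 1 peak per class and locus it was −3.02 points (adjusted p = 0.265), and the difference from peaks with both edges on the grid was −11.3 points (adjusted p = 0.00150, Fisher's exact test). That setting takes out clustered peaks by construction, so its values cannot decide whether spacing differs.

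Strand and score differed little between the classes, and no difference passed the test. The minus strand carried 54.2% of them (51.8% to 56.5%), against 53.6% and 52.2% of the other classes. The differences were 0.55 points (−3.04 to 4.14, adjusted p = 0.812) and 1.94 points (−3.66 to 7.58, adjusted p = 0.700, Fisher's exact test). The scores of off-grid peaks lay between 5.0 and 13.6, with a median of 7.49 and quartiles of 6.56 and 9.02, against medians of 7.43 and 7.45 in the other classes. A score of at least 8 was reached by 38.3% of off-grid peaks, 2.79 points above peaks with 1 edge on the grid (−0.69 to 6.24, adjusted p = 0.238) and 0.82 points above those with both (−4.74 to 6.17, adjusted p = 0.812, Fisher's exact test).

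Within the class, score varied with length, and the other classes did so too. The off-grid median was 7.13 below 50 bases, rose to 8.01 from 200 to 249 bases, where 50% of the peaks reached 8, and was 7.10 from 250 to 299 bases. In the same ranges the medians were 7.09, 7.82 and 7.21 for peaks with 1 edge on the grid. For peaks with both edges on it they were 7.10 (n = 7), 7.75 and 7.33. By chromosome, the median score was highest on chromosome 5 (8.13, n = 130) and lowest on chromosome 19 (6.80, n = 22). Chromosome 1 held the most off-grid peaks with 232. The highest scores belonged to peaks of 87 bases on chromosome 7 (65487369 to 65487456, minus strand, 13.6), 220 bases on chromosome 10 (95746399 to 95746619, minus, 13.1), 204 bases on chromosome 7 (35965480 to 35965684, minus, 13.1), 91 bases on chromosome 3 (117429548 to 117429639, plus, 13.0) and 61 bases on chromosome 1 (260473329 to 260473390, plus, 13.0). None of these has a name here. The lowest score, 5.0, just past the threshold of the study, was found on chromosome 1 for peaks of 127 bases (69608703 to 69608830) and 77 bases (213005145 to 213005222). Next were peaks on chromosome 6 (118289711 to 118289827, score 5.01) and chromosome 13 (54439408 to 54439423, 5.02), and the fifth, 99 bases long with a score of 5.02, is named Ahnak2.

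Gene names were known for 261 off-grid peaks of 216 genes, matched by identical chromosome, start and end to the rows of the study's annotation that were used here. Those rows are only some of the ones the study lists as higher after injury, and the unnamed peaks hold the rest of these and all other peaks. The named genes are thus not a cross-section of the class, and nothing was tested on them. The named peaks had a median length of 126 bases and a median score of 7.41, and 44.8% were whole codons (117 of 261), against 124 bases, 7.50 and 42.4% for the 1563 without a name. Within these rows, the genes with 3 or more off-grid peaks were Cenpe with 6, Nav2 with 5, and Abca1, Gas7, Kif11 and Lcp2 with 3 each.

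The gene lists below were drawn up after the names of the annotated off-grid peaks had been read. Between 66.7% and 81.8% of each list's named peaks were off-grid, against 49.6% of all named peaks (261 of 526), but this follows from how the lists were made and says nothing of the genes. Only lengths and scores are therefore described. Genes of mitosis and DNA replication had 47 off-grid peaks in 32 genes, with a median of 120 bases, and 18 were whole codons. The highest scores were those of Kif22, a kinesin that moves chromosome arms (78 bases, score 12.9), E2f3, a transcription factor of entry into S phase (318 bases, 12.6), and Cenpe (120 bases, 12.6). Bub1b, a kinase of the spindle checkpoint, had a peak of 113 bases (score 11.8), and Tpx2, which nucleates spindle microtubules, one of 120 bases (11.7). The 3 peaks of Kif11, the motor that pushes spindle poles apart, differed widely in score. They were 269, 91 and 243 bases long, with scores of 5.24, 5.18 and 11.7.

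Replication-dependent histone genes gave the plainest link between length and coding sequence, though for only 4 of the 8 named peaks. These genes have no introns, so the coding sequence is not split over exons. Their mRNAs normally end in a stem-loop and not in the poly(A) tail by which, per the study's methods, MeRIP RNA was selected. There were 8 named off-grid histone peaks, and 6 of the 8 were whole codons. The peaks of Hist1h3c (chromosome 17, 45488059 to 45488470, score 7.23) and Hist2h3c2 (chromosome 2, 217903377 to 217903788, score 10.7) were both 411 bases, or 137 codons, which is the coding length of a canonical histone H3 with its stop codon. The peak of Hist1h4b was 312 bases, or 104 codons (score 7.08), the coding length of histone H4, and that of Hist1h2ac 393 bases, or 131 codons (score 6.79), the coding length of a canonical H2A. The other 4 were 231 bases (Hist1h2bl), 382 (Hist1h2bd), 86 (Hist1h4m) and 396 bases (Hist2h4), which are not the lengths of these 3 sequences. Of these, 231 and 396 bases are whole codons all the same. Neither Hist1h4m nor Hist2h4 had the 312 bases of H4, and the Hist2h4 peak was longer. The H2B peaks, Hist1h2bl and Hist1h2bd, were not set against the coding length of H2B.

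The same lengths recurred around them. Within 250 kb of a named histone peak lay 26 off-grid peaks, 20 on chromosome 17 and 6 on chromosome 2, with a median of 393 bases, and 23 of the 26 were whole codons (88.5%, interval 69.8% to 97.6%). Of the 8 off-grid peaks of 411 bases in the whole list, all 8 lay in these windows, as did 7 of the 8 of 393 bases and 3 of the 5 of 312 bases. At the neighbouring lengths there were 0 peaks at 410 and 1 at 412 bases, 0 at 392 and 394 bases, and 0 at 311 and 1 at 313 bases. This window was chosen after the lengths had been seen, and these shares are a description. Histone genes are near-identical copies, so reads of one can be counted at another, and single histone peaks are uncertain for this reason. Chromosome 17 had the highest whole-codon share of any chromosome, 60.3% of 63 peaks, and 46.5% of 43 without the peaks in these windows. Over all off-grid peaks, leaving out these windows lowered the share from 42.8% to 42.1% and the difference from peaks with 1 edge on the grid from 7.88 to 7.18 points (adjusted p = 0.000283, Fisher's exact test).

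Genes of cytosolic ribosomal proteins were the opposite in length. They had 9 named off-grid peaks, with a median of 25 bases. Among them were peaks of 15 bases in Rpl7, 16 in Rpl17, 19 in Rpl6, 24 in Rps15, 25 in Rpl14 and Rpl34, 26 in Rps26 and 52 in Rps19, with scores from 5.09 (Rpl17) to 8.02 (Rpl34). These genes have many processed pseudogenes, whose copies can draw reads away or add them.

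Genes of leukocyte receptors and signaling had 44 named off-grid peaks in 37 genes, with a median of 135 bases and 18 whole codons. Cd84, a self-binding receptor of leukocytes, had the highest score (135 bases, 12.4). The peaks of Parvg, an adhesion adaptor of blood cells, were 96 and 120 bases with scores of 12.0 and 9.76. Lcp2, the adaptor SLP-76 of T cell receptor signaling, had 3 short peaks of 47, 66 and 31 bases, with scores of 9.12, 7.61 and 8.64. Ptprc, the leukocyte phosphatase CD45, and Mrc1, the mannose receptor of macrophages, each had 1 peak of 147 bases, with scores of 6.82 and 6.56.

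Genes of the extracellular matrix had 9 named off-grid peaks. Beside the collagens above, Adam12, a membrane metalloprotease, had peaks of 178 bases (score 12.2) and 199 bases (8.57), Tnn (tenascin N) one of 264 bases (7.92), Thbs2 (thrombospondin 2) one of 129 bases (6.25) and Hmcn1 (hemicentin) one of 146 bases (5.73). Of these 9, 5 were whole codons.

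Genes of axon growth and neural adhesion had 21 named off-grid peaks in 16 genes, with a median of 148 bases, and 8 were whole codons. Flrt3, an adhesion receptor of axon guidance, scored highest (201 bases, 11.7), followed by Srgap1, which acts in Slit and Robo signaling (196 bases, 9.65), and Shtn1, or shootin, which links growth cone actin to adhesion (176 bases, 8.50). Ngfr, the p75 neurotrophin receptor of Schwann cells after injury, had a peak of 182 bases (score 8.12) and Gfra1, the GDNF co-receptor, one of 289 bases (7.41). Nav2, a neuron navigator, had 5 peaks of 73, 113, 75, 146 and 154 bases, in order of position, with scores from 5.91 to 7.63. The peaks of the teneurin Tenm3 were 279 and 147 bases long, both whole codons, with scores of 7.24 and 6.94.

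**Figure D5:**
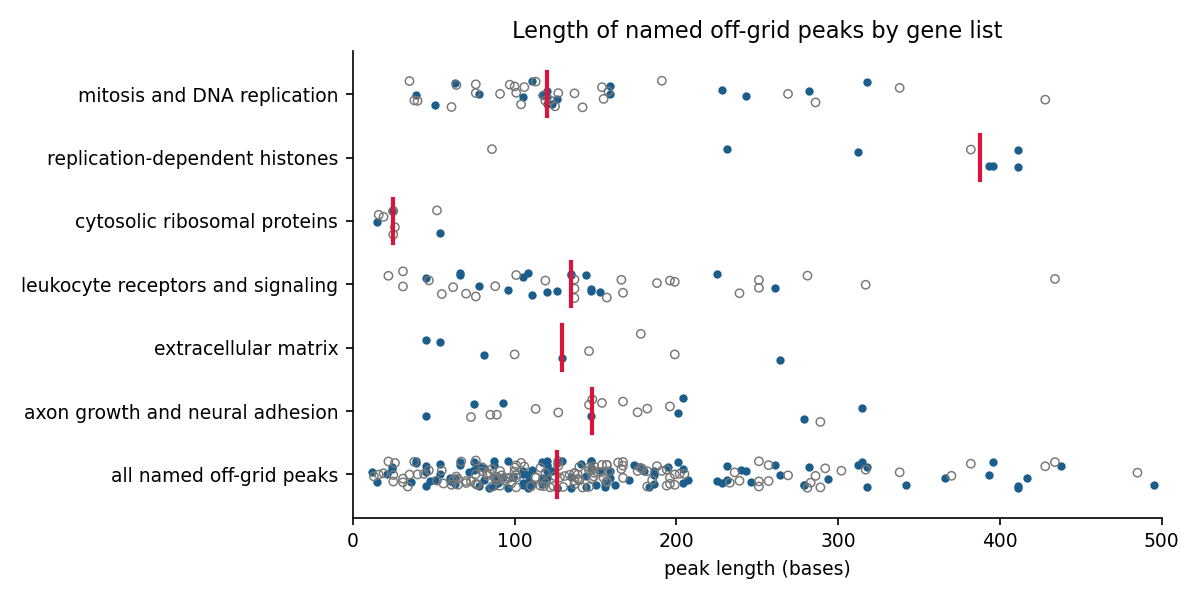
Length of each named off-grid peak (x axis, bases) by gene list (rows; the last row holds all 261 named ones); filled points are multiples of 3, open points are not, and red bars mark medians. Ribosomal protein peaks sit at the short end (median 25 bases), histone peaks mostly above 300 bases, and the other lists around 120 to 148 bases.

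Outside the annotated rows, peaks were looked up at the loci of 15 genes whose mRNA the study singled out. Off-grid peaks were found in 5 of them, all muscle genes. Myh1, a fast myosin heavy chain, had 5 off-grid peaks of 256, 243, 390, 127 and 119 bases on the plus strand of chromosome 10, with scores from 6.20 to 6.98. Myh4, another fast myosin next to it, had 4, of 137, 390, 184 and 105 bases, with scores from 6.33 to 7.69. The 390-base peaks of the genes, at 53508768 to 53509158 and 53546497 to 53546887, have the same length of 130 codons. Myh2 had 1 off-grid peak of 318 bases (score 6.93), Atp2a1, the calcium pump of fast muscle, 1 of 86 bases (5.99), and Acta1, skeletal muscle actin, 1 of 51 bases (6.90). These myosin genes are close copies of each other, so reads shared between them were not told apart here. The other 10 loci, among them Gpr83, Tyrp1, Ckm and Pgam2, held 0 off-grid peaks.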

How the data were processed

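MeRIP-seq was performed on sciatic nerve, 3 control and 3 SNI samples, each with an IP and an input library. Per the study, RNA for MeRIP-seq was poly(A) selected and fragmented, and directional libraries were sequenced. Its RNA-seq libraries were instead made from total RNA after removal of rRNA. Per the methods of the authors, Hisat2 (v2.0.4) mapped the reads to rn5 after trimming by Cutadapt (v1.9.3). MACS found the peaks, and diffReps compared the groups. Peaks that both programs recognised were then filtered by whether they overlapped 2 or more exons, and the wording leaves unclear whether such peaks were kept or removed. The deposited list has 6 columns, and the score in it was read as the authors' −log10 p-value. It gives no depth per library. The study reports read counts for each library, but these did not enter here, and intervals cover counting error over peaks only. In that report the raw read counts of the input libraries recur for the RNA-seq libraries, with control and SNI exchanged. How the input RNA was selected, and which group each input belongs to, was not resolved here. Starts and ends are printed as deposited.

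Peaks were classed by whether start and end lie on the 20-base grid. Shares were compared by two-sided Fisher's exact tests over peaks, which describe this list and not the animals, with Benjamini-Hochberg adjustment over 8 tests and a threshold of 0.05. Differences carry Newcombe intervals, and other shares exact Clopper-Pearson intervals (95%). Chains join same-strand off-grid peaks with gaps under 10 kb, and loci join same-strand peaks with gaps under 50 kb. Gene names were matched to 526 rows of the study's annotation. Named were the peaks with the 5 highest and 5 lowest scores, those next to the length limit, the longest chains, genes with 3 or more off-grid peaks and the leading members of 6 gene lists. Repeated lengths, the histone windows and the 15 gene loci were added after values were seen. The members and lists were chosen with earlier results of these data known, and the gene lists after the names of annotated off-grid peaks had been read. A planned comparison with RefSeq protein lengths was not made. Alternatives were the counting of length, the length limit, score thresholds, the chromosome 3 groups, edges within 1 base of the grid, 1 peak per locus and other distances. The functions were tested on simulated data. The software was scipy 1.17.1 and pandas 2.3.3, with numpy 2.4.6, under Python 3.11.15, and figures were drawn by matplotlib 3.10.9. Sequences of the peaks are not printed, since no rn5 genome was used here. Single values of 1 gene of the lists are not reported here.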

Additional observations from a re-analysis of the deposited data

How the results depend on the processing

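In 50 of 68 recalculations the value kept its sign and its side of the threshold, or a median or count stayed within a set band. The band for counts was wide. It took in 1447 off-grid peaks, against 1824, with edges within 1 base of the grid counted as on it. The higher whole-codon share of off-grid peaks held under each alternative tried except 1 base added to every length. There the difference was −4.46 points from peaks with 1 edge on the grid and 0.40 points from peaks with both, since the excess then lies at another remainder. The spacing difference from peaks with 1 edge on the grid did not pass the threshold with scores of at least 6 (4.19 points), with edges within 1 base of the grid counted as on it (3.18) or within 5 kb (2.84), and it turned to −3.02 with 1 peak per class and locus. From peaks with both edges on the grid it was −3.52 within 5 kb, −11.3, past the threshold, with 1 peak per class and locus, and 8.04, past the threshold, within 20 kb. Keeping 1 peak per locus takes out clustered peaks by construction, so its values cannot decide whether spacing differs. This setting left 1031 off-grid peaks with a median score of 7.29. It also turned the score difference to −1.25 points (1 edge) and −6.39 points (both edges) and the strand difference from peaks with both edges to −1.43 points, none of them past the threshold. The score difference from peaks with both edges was also −1.02 points with the chromosome 3 groups kept and −0.11 points at a score of at least 9; the cause was not tested. The median length was 131 bases without the length limit and the median score 7.77 with scores of at least 6, both by construction. No paired analysis was possible because the list has no value per library, and for the same reason no replicate was left out.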
